A study of Rattus norvegicus with 20 samples.

Results

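Rbp7, Cd300lg, Ceacam1, Ly6c and Kctd12b are 5 genes, most of them known from the endothelium of small vessels, whose transcripts were high in the red tibialis anterior muscle of rats given rosiglitazone. They were chosen by their levels in that group, so their rosiglitazone values describe the choice and carry no test. The members are the rows that carry exactly 1 of these symbols and no other. Each symbol had 1 such row, which gives 5 genes of the 14557 genes with a symbol of their own. Muscle RNA of 20 male rats, which the labels describe together as ZDF animals, was hybridised to Affymetrix Rat Gene 2.1 ST arrays, 1 rat per array and 5 rats per group. The groups were rosiglitazone, resveratrol, obese and lean control rats. The labels give all rats the strain Zucker, an individual cage, a reversed light cycle and free access to food and water. Lean controls ate a standard chow and obese rats a stock diet for 6 weeks. The labels of the rosiglitazone and resveratrol rats give no dose, duration, diet or genotype. The treated groups were set against the obese group because the study describes its treatments as given to diabetic rats. The rats of a group are labelled biological replicates. Values are log2 expression after RMA, on which 1 unit is a doubling. Array medians over all rows lay between 2.46 and 2.55, and arrays of a group correlated at 0.980 to 0.987 over the 14557 genes. The strips and dates of the arrays were not given in the labels, so no batch could be named.

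Rosiglitazone binds PPARgamma, a nuclear receptor that pairs with the retinoid X receptor and switches on genes of lipid storage and handling. PPARgamma is best known from fat cells, but endothelial cells carry it too, and the capillaries of oxidative muscle move fatty acids from blood lipoproteins to the fibres. Resveratrol is a plant polyphenol of another class. Obese animals of the ZDF strain carry a defective leptin receptor and develop insulin resistance and diabetes, and lean animals are used as their controls. Rbp7 encodes a small cytosolic protein that binds retinol. Cd300lg encodes an immunoglobulin-family receptor of the endothelial surface, which in the mouse binds L-selectin of lymphocytes. Ceacam1 encodes an adhesion molecule with an inhibitory cytoplasmic tail, known from endothelium, leukocytes and the insulin clearance of liver. Ly6c belongs to the Ly6 family of small proteins held at the cell surface by a lipid anchor, and in the mouse it marks a class of monocytes as well as endothelium. Kctd12b is a close relative of Kctd12, an auxiliary subunit of the GABA-B receptor.

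Promoter windows of 3 of the genes were taken from RefSeq on the rat build GRCr8, each running from 250 bases before the transcription start to 50 bases after it. They are shown because the receptor of rosiglitazone reads a known motif. The windows lie at chr5:165177350-165177649 on the minus strand for Rbp7, at chr1:90187743-90188042 on the minus strand for Ceacam1 and at chrX:20988803-20989102 on the plus strand for Kctd12b. Each is given 5′ to 3′ on the strand of the gene, and capitals mark the match described after them.
Rbp7: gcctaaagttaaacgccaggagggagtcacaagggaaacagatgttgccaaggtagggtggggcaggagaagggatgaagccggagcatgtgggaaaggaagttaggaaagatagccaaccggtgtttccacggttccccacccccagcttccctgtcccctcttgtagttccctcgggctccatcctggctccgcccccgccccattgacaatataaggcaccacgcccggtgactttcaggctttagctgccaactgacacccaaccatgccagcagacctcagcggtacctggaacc
Ceacam1: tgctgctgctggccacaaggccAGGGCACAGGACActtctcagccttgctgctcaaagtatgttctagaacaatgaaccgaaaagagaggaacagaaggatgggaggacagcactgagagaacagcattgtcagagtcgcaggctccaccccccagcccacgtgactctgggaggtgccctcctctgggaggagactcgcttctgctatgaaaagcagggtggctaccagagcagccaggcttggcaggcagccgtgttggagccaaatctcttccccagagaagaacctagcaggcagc
Kctd12b: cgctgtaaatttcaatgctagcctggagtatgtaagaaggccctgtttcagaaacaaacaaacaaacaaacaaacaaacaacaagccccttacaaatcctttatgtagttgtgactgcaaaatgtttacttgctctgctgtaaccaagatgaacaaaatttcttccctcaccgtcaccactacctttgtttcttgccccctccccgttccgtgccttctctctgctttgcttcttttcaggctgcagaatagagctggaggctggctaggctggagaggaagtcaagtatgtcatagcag
The windows were searched on both strands for AGGTCA, the core motif of nuclear receptors, for DR1, and for CCGGAA, the core of ETS factor motifs with its flank. DR1, the motif of PPAR and retinoid X receptor pairs, is made of 2 copies of AGGTCA in the same direction with 1 base between them, so an exact DR1 also counts as AGGTCA. Kctd12b has a second, overlapping window at chrX:20988850-20989149, which was searched as well, giving 4 windows. None of the 4 windows held AGGTCA, which 16.2% of all 33469 windows held, and none held CCGGAA, which 15% held. An exact DR1 stood in 0.0538% of all windows and in none of the 4. With up to 2 mismatches in the 12 motif bases, DR1 stood in 3.77% of all windows and in 1 of the 4, that of Ceacam1. The match is the run in capitals, on the strand of the gene at position -228 from the start, with 2 mismatches. The GC content was 58.0% for Rbp7, 57.3% for Ceacam1 and 44.7% for Kctd12b, beside a median of 51.7% over all windows. A match is a description of these letters and not a binding site.

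Rbp7 stood highest of all the genes in the size of its difference from lean muscle. It had 8.65, 9.07, 8.44, 8.56 and 8.58 in the rosiglitazone rats, 4.47, 4.22, 4.98, 5.36 and 5.56 in the resveratrol rats, 4.90, 4.48, 5.48, 4.15 and 3.45 in the obese rats, and 3.69, 4.35, 4.78, 4.48 and 4.07 in the lean controls. The 5 rosiglitazone rats lay close together and far above every other rat, and the remaining groups overlapped. The group means were 8.66 (SD 0.24) with rosiglitazone, 4.92 (SD 0.57) with resveratrol, 4.49 (SD 0.77) in obese rats and 4.27 (SD 0.41) in lean controls (n = 5 each). Against obese muscle the log2 difference was +4.17 (SE 0.29, 95% interval 3.56 to 4.78), or 17.96-fold, the second of 14557 genes in order of log2 fold change. It was +3.74 against resveratrol and +4.38 against lean controls, the first place in both.

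Cd300lg had 6.66, 6.89, 6.53, 6.37 and 6.62 in the rosiglitazone rats, 3.19, 2.96, 2.51, 3.16 and 3.93 in the resveratrol rats, 3.56, 3.53, 4.18, 3.88 and 3.34 in the obese rats, and 2.82, 3.13, 3.08, 2.72 and 2.14 in the lean controls. Every rosiglitazone rat was above every other rat, and every obese rat was above every lean control. The means were 6.61 (SD 0.19), 3.15 (SD 0.52), 3.70 (SD 0.33) and 2.78 (SD 0.39) in the order rosiglitazone, resveratrol, obese and lean control. The difference of rosiglitazone from obese muscle was +2.91 (SE 0.21, 95% interval 2.47 to 3.35), or 7.53-fold, in place 4 of all genes. It was +3.46 against resveratrol and +3.83 against lean controls. The resveratrol and lean control values reach down to the array medians, and 1 lean rat lies below them, where the table carries no detection call, so these folds are less certain than their SE.

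Ceacam1 was the tightest of the 5 genes. It had 5.54, 5.63, 5.71, 5.49 and 5.53 in the rosiglitazone rats, 3.30, 3.21, 3.06, 2.71 and 2.80 in the resveratrol rats, 2.82, 3.04, 3.02, 3.08 and 2.84 in the obese rats, and 2.52, 2.85, 2.82, 2.83 and 2.98 in the lean controls. The rosiglitazone rats stood apart and the other 15 rats formed 1 overlapping band. That band lies near the array medians, so the folds of Ceacam1, too, rest on low values in the other groups. The means were 5.58 (SD 0.09) with rosiglitazone, 3.01 (SD 0.25) with resveratrol, 2.96 (SD 0.12) in obese rats and 2.80 (SD 0.17) in lean controls. The log2 difference from obese muscle was +2.62 (SE 0.11, 95% interval 2.38 to 2.86), or 6.14-fold, in place 5 of all genes, with +2.56 against resveratrol and +2.78 against lean controls.

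Ly6c and Kctd12b had smaller differences. Ly6c had 6.79, 6.66, 6.36, 6.24 and 6.29 in the rosiglitazone rats, 5.12, 4.49, 4.46, 5.17 and 4.64 in the resveratrol rats, 4.63, 5.10, 5.47, 4.67 and 5.54 in the obese rats, and 4.74, 5.05, 5.13, 4.95 and 5.01 in the lean controls. The lowest rosiglitazone rat was 0.70 units above the highest obese rat, and the obese and resveratrol rats spread to both sides of the narrow lean group. The means were 6.47 (SD 0.24), 4.78 (SD 0.35), 5.08 (SD 0.43) and 4.97 (SD 0.15) for rosiglitazone, resveratrol, obese and lean control. The difference of Ly6c from obese muscle was +1.39 (SE 0.18, 95% interval 1.01 to 1.76), or 2.61-fold, in place 21. Kctd12b had 5.13, 5.41, 5.32, 4.68 and 5.17 in the rosiglitazone rats, 3.68, 3.20, 3.72, 3.15 and 3.50 in the resveratrol rats, 3.52, 3.57, 3.42, 3.75 and 4.15 in the obese rats, and 3.46, 3.26, 3.14, 3.37 and 4.0 in the lean controls. Rosiglitazone rat 4 was the lowest of its group for this gene, yet it stayed 0.53 units above the highest rat outside the group. The means of Kctd12b were 5.14 (SD 0.28) with rosiglitazone, 3.45 (SD 0.26) with resveratrol, 3.68 (SD 0.29) in obese rats and 3.44 (SD 0.33) in lean controls. Its difference from obese muscle was +1.46 (SE 0.17, 95% interval 1.11 to 1.82), or 2.75-fold, in place 18. Both genes were 1.69 units higher with rosiglitazone than with resveratrol, and against lean controls Ly6c differed by +1.49 and Kctd12b by +1.70.

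**Figure D1:**
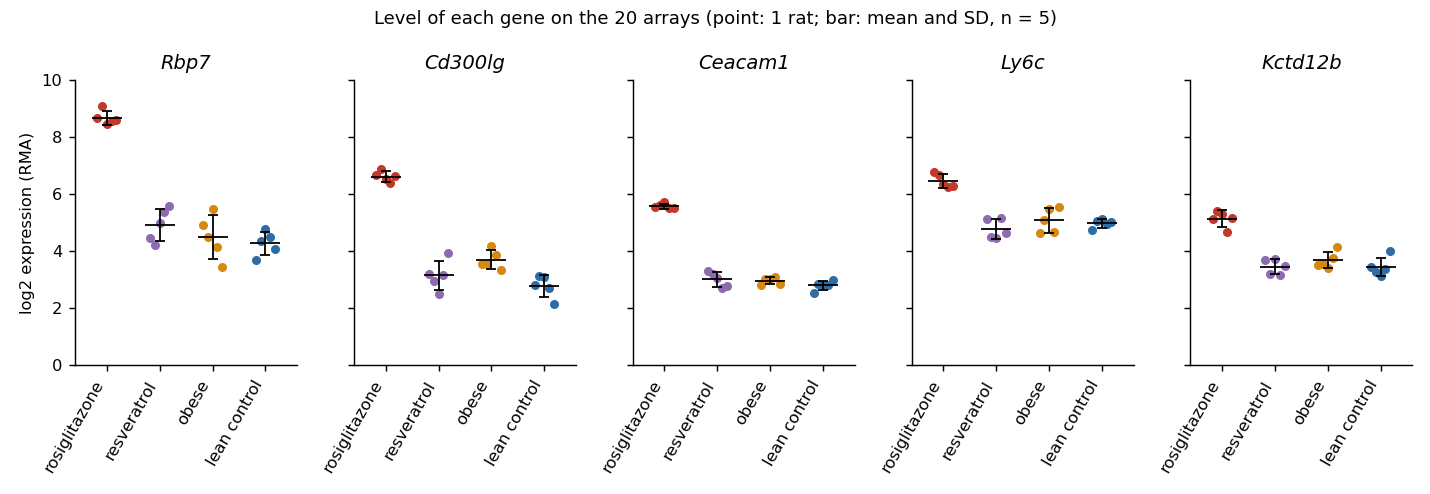
Log2 expression (RMA) of the 5 genes on each of the 20 arrays, with a point per rat and a bar for the mean and SD of each group of 5. In every panel the 5 rosiglitazone rats sit above all rats of the other groups, by the widest margin for Rbp7 and the narrowest for Kctd12b.

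All 5 genes had every rosiglitazone rat above the other 15 rats, a pattern shared by 119 of the 14557 genes, or 0.817%, with 43 genes, or 0.295%, in the opposite direction. In rosiglitazone against obese muscle, limma called 282 genes at an adjusted p under 0.05, of which 213 were higher (1.46%) and 69 lower (0.474%). The 5 members are among the higher ones, as their choice required, and nothing is read from that. Their median log2 difference from obese muscle was 2.62, beside -0.00 over all genes. The 3 comparisons with rosiglitazone share the rosiglitazone rats and are not separate evidence.

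Among the rats without rosiglitazone, the 5 genes could be tested, although the obese and resveratrol rats had also entered the comparisons by which the genes were chosen. None of the 5 passed in any of these comparisons, and in each of them 1 of the 5 had an unadjusted p under 0.05. In resveratrol against obese muscle, limma called 0 of 14557 genes (0%), with 1078 genes at an unadjusted p under 0.05 and a smallest adjusted p of 0.509. No array separation was seen for the members. Over all genes 187, or 1.28%, had groups that did not overlap, and with so small a share nothing is read from its absence among 5 genes. Rbp7 differed by +0.43 (95% interval -0.18 to 1.04, adjusted p = 0.795) and Cd300lg by -0.55 (-0.99 to -0.11, adjusted p = 0.621). Ceacam1 stood at +0.05 (-0.18 to 0.29), Ly6c at -0.30 (-0.68 to 0.07) and Kctd12b at -0.23 (-0.58 to 0.13), with adjusted p values of 0.946, 0.735 and 0.821.

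Cd300lg in obese against lean control muscle gave the smallest p among the comparisons without rosiglitazone. Its log2 difference was +0.92 (SE 0.21, 95% interval 0.48 to 1.36), or 1.89-fold, in place 8 of all genes by size, and the lowest obese rat was 0.21 units above the highest lean rat. Such a separation was found for 343 genes (2.36%). The lean values lie around the array medians, so the size of this fold is less certain than its SE. The unadjusted p was 0.00027 and the adjusted p was 0.114, so the difference did not pass over all genes, and over the 19 alternatives the adjusted p ran between 0.0719 and 0.25. In that comparison 1 gene of 14557 was called (0.00687%), and 1570 had an unadjusted p under 0.05. Kctd12b differed by +0.23 (95% interval -0.12 to 0.59), Rbp7 by +0.22 (-0.39 to 0.83), Ceacam1 by +0.16 (-0.08 to 0.40) and Ly6c by +0.11 (-0.27 to 0.48), with adjusted p values of 0.665, 0.835, 0.656 and 0.872. All 5 estimates were above 0, with a median of 0.22 beside -0.01 over all genes. Without obese replicate 3 the estimate for Rbp7 was -0.03, and without obese replicate 5 that for Ly6c was -0.01.

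In resveratrol against lean control muscle, 2 genes were called (0.0137%) and 1256 had an unadjusted p under 0.05, while 265 genes (1.82%) had groups that did not overlap. None of the 5 genes was called, and for each of them the groups overlapped. Rbp7 was 0.65 higher (95% interval 0.04 to 1.26, unadjusted p = 0.0388, adjusted p = 0.547), Cd300lg 0.37 (-0.07 to 0.81, adjusted p = 0.646) and Ceacam1 0.21 (-0.02 to 0.45, adjusted p = 0.615). Kctd12b differed by +0.01 (-0.35 to 0.36) and Ly6c by -0.20 (-0.57 to 0.18). Over the 3 groups without rosiglitazone, the order of the means was resveratrol, obese and lean control for Rbp7 and Ceacam1, obese, resveratrol and lean control for Cd300lg and Kctd12b, and obese, lean control and resveratrol for Ly6c. Groups next to each other in these orders overlapped for all 5 genes. The obese and lean control rats of Cd300lg, which did not overlap, have the resveratrol mean between theirs.

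**Figure D2:**
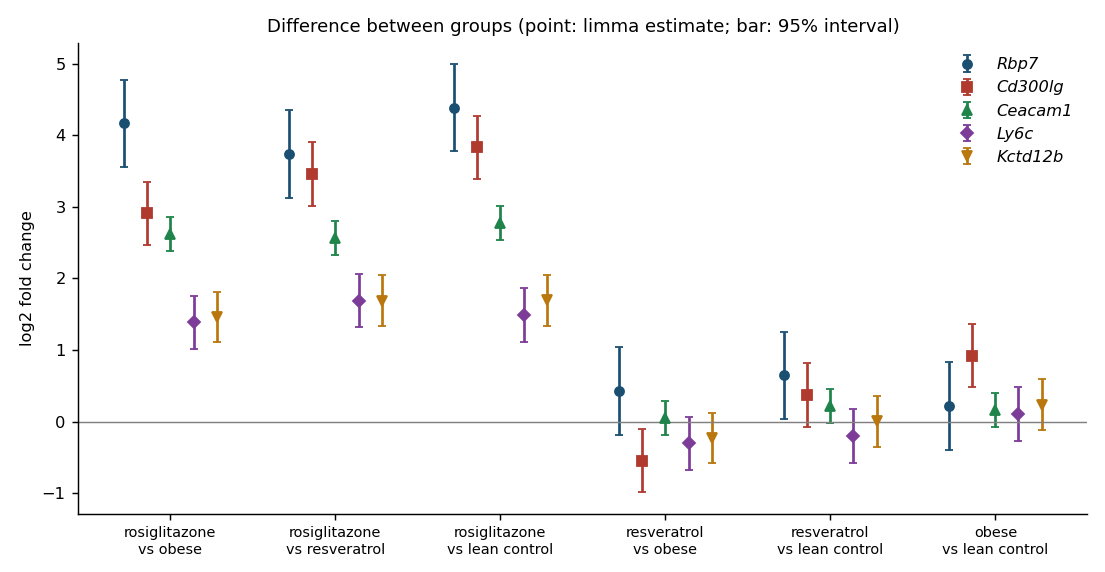
Log2 fold change of the 5 genes in the 6 comparisons of groups, with a point for the limma estimate and a bar for its 95% interval. The 3 comparisons with rosiglitazone lie between 1.39 and 4.38, and the 3 others between -0.55 and 0.92.

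The 5 genes were high together in the rosiglitazone rats, as their choice required, and on average did not follow each other among the rats of a group. Over all 20 arrays the 10 pairs of members correlated at a mean Pearson r of 0.905, with the rosiglitazone rats high for all 5 genes. That value follows from the choice of genes high in the same 5 rats, and nothing is read from it. After each group mean was subtracted, the mean r of the 10 pairs was 0.0057. Rbp7 and Cd300lg kept the closest relation, with r = 0.95 over all arrays and r = 0.54 for the deviations. Rbp7 and Kctd12b lay at the other end, with 0.85 and -0.41. Cd300lg and Kctd12b had a deviation r of -0.37, Ceacam1 and Kctd12b 0.27, and the other pairs lay between -0.21 and 0.19. These values are descriptions over 20 arrays that share 4 group means.

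Rosiglitazone rat 2 was above its group mean for all 5 genes, by 0.41 for Rbp7, 0.27 for Cd300lg, 0.05 for Ceacam1, 0.19 for Ly6c and 0.27 for Kctd12b. Rosiglitazone rat 4 was below it for all 5, between -0.09 for Ceacam1 and -0.46 for Kctd12b. Obese rat 3 was 0.99 above the mean of its group for Rbp7, 0.48 for Cd300lg and 0.39 for Ly6c, but -0.26 for Kctd12b. Obese rat 5 was on the other side of the mean for Rbp7 (-1.05), Cd300lg (-0.36) and Kctd12b (0.47), and on the same side for Ly6c (0.46). Rbp7 was the most variable of the 5, with a residual SD of 0.53, above 99.3% of all genes, whereas Ceacam1 had 0.17, above 21.9%. Cd300lg had a residual SD of 0.38, Ly6c 0.31 and Kctd12b 0.29. Group means held 98.3% of the variance of Ceacam1, 95.3% for Cd300lg, 93.3% for Rbp7, 88.0% for Kctd12b and 85.3% for Ly6c. These shares are high because the genes were chosen by their rosiglitazone levels.

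**Figure D3:**
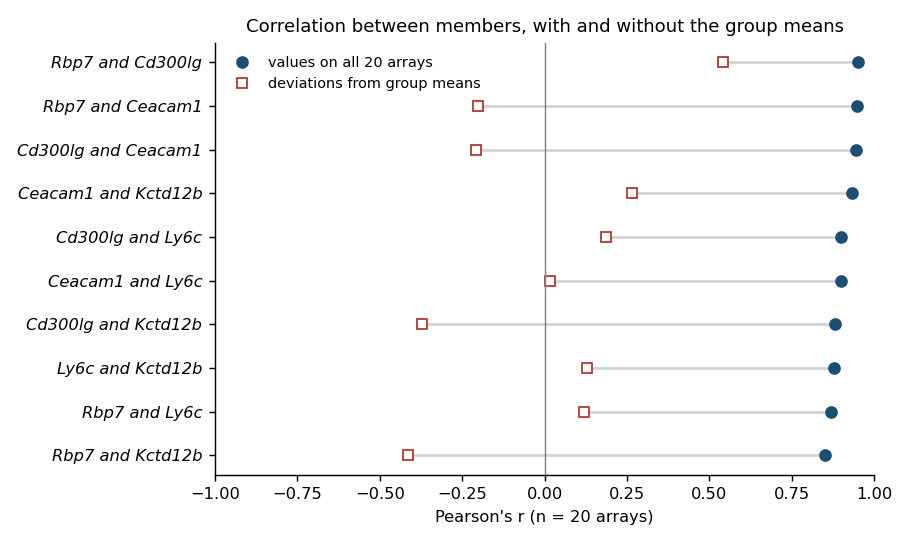
Pearson correlation of each pair of the 5 genes over the 20 arrays, with filled points for the values and open squares for the deviations from group means. The filled points lie between 0.85 and 0.95 and the open squares between -0.41 and 0.54.

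The genes whose pattern over the 20 arrays was most like the mean of the 5 members included further genes of endothelium and lipid handling. The highest correlation was that of Fabp4, a fatty acid carrier of capillaries and fat cells (r = 0.937), with 9.91 (SD 0.07) in rosiglitazone rats, 8.55 (SD 0.30) in resveratrol rats, 8.40 (SD 0.24) in obese rats and 8.08 (SD 0.30) in lean controls. It was followed by the tetraspanin Tspan13 (0.937), the ephrin ligand Efnb1 (0.934), the fatty acid elongase Elovl6 (0.931), Vwf, the von Willebrand factor of endothelium (0.931), and Mmd (0.930). Clec1a, a lectin-like receptor of endothelium, had 0.928, Gpihbp1, which carries lipoprotein lipase across capillaries, 0.928, Cyyr1 0.926 and the metalloprotease Adam15 0.924. Their differences from obese muscle ranged from +0.49 for Tspan13 to +2.49 for Elovl6, as the choice by likeness requires. With Spearman correlation only 3 of these 10 genes stayed among the 10 most like the members, and with arrays left out 8 to 10 did. Elovl6 had a mean of 1.99 in obese rats, below the array medians, so the size of its fold is less certain than its SE. The most opposite patterns were those of Aqp1, the water channel of capillaries (r = -0.968), and Ace, the angiotensin-converting enzyme of the endothelial surface (r = -0.911). Aqp1 had 4.68 (SD 0.23) in rosiglitazone rats, 6.76 (SD 0.17) in resveratrol rats, 6.94 (SD 0.17) in obese rats and 6.87 (SD 0.15) in lean controls. Carnmt1, Dgke and Smsl1 came next among the opposite genes, at -0.904, -0.884 and -0.882. When group means were removed, none of the 10 genes most like the members was shared, and the nearest were the olfactory receptor Or5bh3 (0.815), Igfbp2 (0.793), Tmem186 (0.764), Kcnd3 (0.741) and Rab6b (0.734), whose group means lay between 1.13 and 3.15, near or below the array medians.

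Whole muscle holds fibres, vessels, fat cells and other cells, and in such RNA a change in the number of cells of a type and a change of RNA per cell cannot be told apart. The capillary label of the 5 genes was therefore set beside lists of marker genes that do not hold them. Of 20 capillary markers, 16 were measured, of which 6 were higher and 1 lower in rosiglitazone against obese muscle, with a median of +0.37. Over all genes 1.46% were called higher and 0.474% lower. Of the 16 markers 11 were positive. Flt1 (-0.39, adjusted p = 0.0895), Tcf15 (-0.39, adjusted p = 0.345) and Sparcl1 (-0.31, adjusted p = 0.0876) were among the negative ones and were not called. Sparcl1 was called lower against resveratrol rats (adjusted p = 0.00804) and lean controls (adjusted p = 0.00122). Fabp4 (+1.51, adjusted p = 1.47e-06), Gpihbp1 (+1.20, adjusted p = 1.64e-05) and Car4, a carbonic anhydrase of the capillary surface (+0.64, adjusted p = 0.011), rose, and Aqp1 fell (-2.26, adjusted p = 2.21e-11). These 4 calls held whichever array was left out. Aqp7, a glycerol channel of fat cells and capillaries (+1.59, adjusted p = 0.0202), was no longer called once rosiglitazone replicate 2 was left out (adjusted p = 0.0543). The scavenger receptor Cd36 (+0.46, adjusted p = 0.0439) and the caveolar protein Cav1 (+0.45, adjusted p = 0.0374) are also on this list. Cd36 kept its call without obese replicate 1 but not without any of the other 9 arrays (0.0531 to 0.125), and Cav1 kept it without rosiglitazone replicate 4, obese replicate 1 or obese replicate 4 but not without any of the other 7 (0.0515 to 0.115). Against resveratrol rats, Cav1 was called (adjusted p = 0.0179) and Cd36 was not (adjusted p = 0.161). The mean level of the capillary list lay between 6.01 and 6.15 in rosiglitazone rats (median 6.11) and between 5.78 and 5.93 in obese rats (median 5.82), so the groups did not overlap.

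Of 23 pan-endothelial markers, 19 were measured, with 4 higher, 2 lower and a median of +0.26. Cdh5, the cadherin of endothelial junctions and the defining marker measured here, did not pass, with 7.23 (SD 0.12) in rosiglitazone rats, 7.24 (SD 0.17) in resveratrol rats, 7.19 (SD 0.07) in obese rats and 7.30 (SD 0.09) in lean controls (adjusted p = 0.89 for rosiglitazone against obese). The transcription factor Sox18 (+0.84, adjusted p = 0.00138) and the angiopoietin receptor Tek (+0.78, adjusted p = 0.0143) rose, and Ace fell (-1.32, adjusted p = 0.000151), each whichever array was left out. The junction protein Esam (+0.86, adjusted p = 0.0152) was not called when obese replicate 3 (0.0512) or 4 (0.0531) was left out. Cd34, a surface sialomucin (-0.86, adjusted p = 0.0232), was not called when any of rosiglitazone replicates 1 (0.0751) and 5 (0.0532) and obese replicates 3 (0.0708) and 5 (0.0621) was left out. Ecscr (+0.50, adjusted p = 0.0336) was not called when any of rosiglitazone replicates 2, 4 and 5 and obese replicates 1, 2 and 4 was left out (0.0628 to 0.104). Of the 19 markers 17 were positive, and of those not called Sox17 had the smallest p (+0.50, adjusted p = 0.0533), with every rosiglitazone rat above every obese rat. The mean level of this list lay between 4.76 and 4.92 in rosiglitazone rats and between 4.55 and 4.85 in obese rats, which overlap. Among 5 measured venous markers, Vwf (+0.93, adjusted p = 1.77e-05), Lrg1 (+0.88, adjusted p = 0.00143) and the leukocyte adhesion receptor Vcam1 (+0.75, adjusted p = 0.00116) rose whichever array was left out. Against lean controls Vwf and Lrg1 were called as well, and Vcam1 was not (+0.29, adjusted p = 0.23). None of the 9 arterial markers and none of the 7 lymphatic markers passed.

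**Figure D4:**
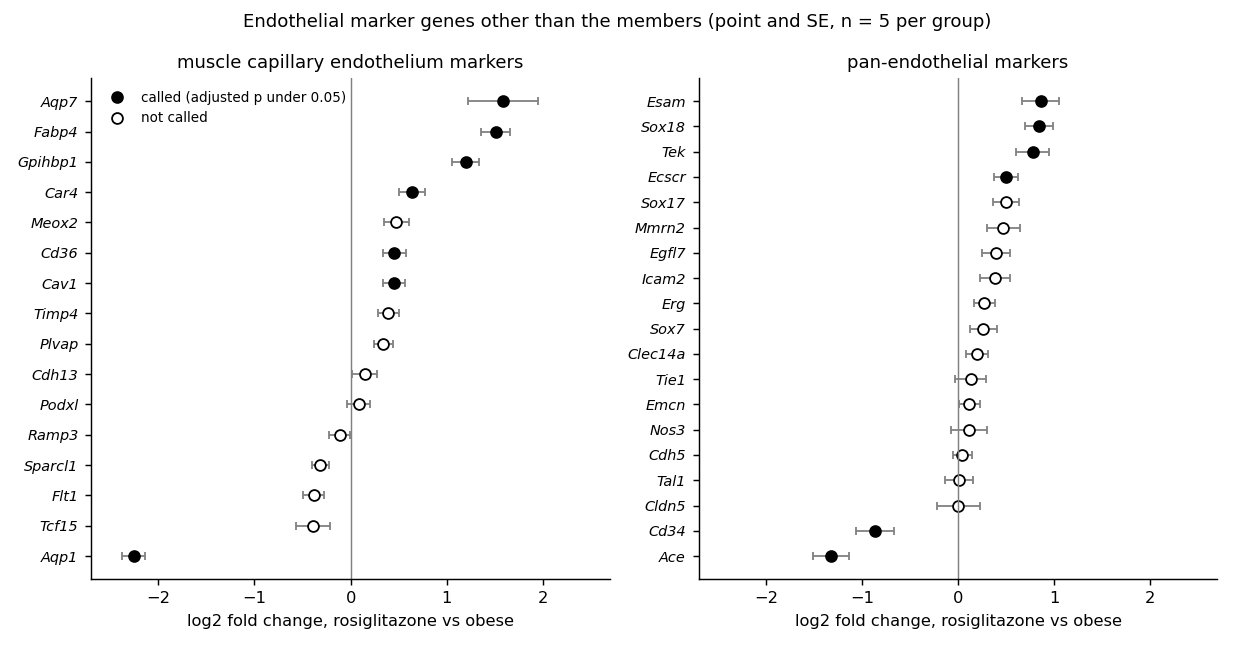
Log2 fold change of rosiglitazone against obese muscle for 16 capillary markers and 19 pan-endothelial markers, with a point for the estimate and a bar for its SE, filled where the adjusted p was under 0.05. The capillary markers run from -2.26 for Aqp1 to +1.59 for Aqp7, and Cdh5 lies at +0.05.

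Markers of other cells moved in part with the 5 genes. Of 14 measured adipocyte markers, 4 were higher and 0 lower, with a median of +0.22. The adipokine Adipoq was 5.33 (SD 0.41) in rosiglitazone rats, against 3.82 (SD 0.50) in obese rats (+1.51, adjusted p = 0.0109), and the lipid droplet protein Cidec differed by +1.32 (adjusted p = 0.00281), both whichever array was left out. Lep (+0.83, adjusted p = 0.0167) was not called when rosiglitazone replicate 4 was left out (0.0502). Plin1 (+0.59, adjusted p = 0.0469) kept its call without rosiglitazone replicate 1 or obese replicate 1 but not without any of the other 8 arrays (0.0543 to 0.146). Cidec and Lep had means of 2.35 and 1.95 in obese rats, below the array medians, so their folds are less certain than their SE. Against resveratrol rats, Cidec and Lep were called, and Adipoq (adjusted p = 0.312) and Plin1 (adjusted p = 0.172) were not. The mean level of the adipocyte list lay between 4.34 and 4.64 in rosiglitazone rats and between 3.96 and 4.13 in obese rats. The part of fat cells in the levels of the 5 genes was not tested.

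None of the 19 leukocyte markers and none of the 9 myofibre markers passed. The mean leukocyte level lay between 2.69 and 3.22 in rosiglitazone rats and between 2.61 and 2.80 in obese rats, and the mean myofibre level lay between 10.28 and 10.46 in rosiglitazone rats and between 10.22 and 10.50 in obese rats. Ptprc, the pan-leukocyte marker, had 2.97 (SD 0.43) in rosiglitazone rats, against 2.84 (SD 0.33) in obese rats, and the macrophage marker Cd68 had 2.51 (SD 0.22), against 2.45 (SD 0.45). Lyz2, the lysozyme of myeloid cells, had the smallest p of the list, with 5.29 (SD 0.39) in rosiglitazone rats, against 4.38 (SD 0.22) in obese rats (+0.91, adjusted p = 0.0795), and the rats of these groups did not overlap. Of the 19 leukocyte markers 15 were positive, with a median of +0.13, and the part of leukocytes in the levels of the 5 genes was not tested. Ckm, the creatine kinase that defines muscle fibres, had 11.06 (SD 0.07) in rosiglitazone rats, against 11.03 (SD 0.10) in obese rats, and the skeletal actin Acta1 10.80 (SD 0.05), against 10.81 (SD 0.07). Of 8 pericyte and smooth muscle markers, Tagln was higher (+0.69, adjusted p = 0.024), but not when any of rosiglitazone replicate 5 and obese replicates 1, 2, 3 and 4 was left out (0.0543 to 0.074). Of 10 fibroblast markers 9 were negative, with a median of -0.35. Col3a1 was the only call (-0.73, adjusted p = 0.0439), kept without rosiglitazone replicate 2 or 4 or obese replicate 1 but not without any of the other 7 arrays (0.0568 to 0.131). In rosiglitazone against lean control, where 510 of all 14557 genes were called, 8 of the 10 were called lower (median -0.74). Against resveratrol rats 1 was called lower. In obese against lean control none was called and 0 of the 10 were positive (median -0.39). None of the 3 erythroid markers passed.

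The 5 genes were then set beside the pathway of the drug. Of 36 PPAR target genes, 31 were measured, with 12 higher, 1 lower and a median of +0.26 beside the rosiglitazone against obese shares given above. Of the 12 higher genes, Fabp4, Cd36, Aqp7, Adipoq, Cidec and Plin1 were also counted above as capillary or adipocyte calls. The desaturase Scd (+4.32, adjusted p = 1.75e-06), the glutathione transferase Mgst1 (+1.81, adjusted p = 1.02e-07), Fabp4 and the mitochondrial carrier Ucp2 (+1.21, adjusted p = 4.3e-05) had the smallest p values among those that rose, and all 4 held whichever array was left out. Scd had a mean of 2.48 (SD 0.93) in obese rats, near the array medians, so the size of its fold is less certain than its SE. The carnitine carrier Slc25a20 fell (-0.43, adjusted p = 0.0428), a call kept without rosiglitazone replicate 3 or obese replicate 5 but not without any of the other 8 arrays (0.075 to 0.12). Of the 8 measured PPAR and RXR receptors and cofactors, Ppara (+0.01), Ppard (-0.07) and Rxra (+0.01) did not pass. Rxrg was lower (-0.46, adjusted p = 0.0437), and kept its call only without obese replicate 4 (0.0509 to 0.13 without any of the other 9). Of 14 measured genes of lipid transfer across capillaries, 4 were higher and 1 lower, with a median of +0.04. The higher ones were Fabp4, Gpihbp1, Cd36 and Cav1, all counted above as capillary calls, so the lists are not separate evidence. The lower one was Nrp1, a co-receptor of VEGF (-0.49, adjusted p = 0.0151), which was not called when obese replicate 3 was left out (0.0547). Lpl, whose product Gpihbp1 carries, did not pass (+0.22). No gene of any of these lists was called in the 3 comparisons without rosiglitazone. Of all 14557 genes, those comparisons called 0 (resveratrol against obese), 2 (resveratrol against lean control) and 1 (obese against lean control), so nothing is read from this.

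Lists of genes related by family or function to Rbp7, Cd300lg, Ceacam1 and Kctd12b were measured in part, and none of their measured genes passed in rosiglitazone against obese muscle. Many of these genes lay near or below the array medians, where the lack of a call does not show a lack of change. For Rbp7, a list of 24 genes of retinoid handling had 16 measured, with a median of -0.04. Rbp4, the retinol carrier of plasma, had 3.0 (SD 0.36) in rosiglitazone rats, against 2.23 (SD 0.24) in obese rats (adjusted p = 0.18), and Rbp2 stood at +0.02, Crabp1 at -0.03, Crabp2 at +0.14 and the retinol receptor Stra6 at -0.19. For Cd300lg, none of 5 measured genes of the CD300 and TREM families passed, and Cd300lf had 1.43 (SD 0.34) in rosiglitazone rats, against 1.52 (SD 0.27) in obese rats. For Ceacam1, none of 8 measured relatives passed, and Ceacam3 had 1.52 (SD 0.18), against 1.63 (SD 0.18). The group means of all 8 lay between 1.06 and 2.25, below the array medians. For Kctd12b, none of 17 genes of the KCTD family and its GABA-B receptor partners passed. Kctd12, the closest of them, had 3.66 (SD 0.17) in rosiglitazone rats, 3.44 (SD 0.15) in resveratrol rats, 3.26 (SD 0.32) in obese rats and 3.31 (SD 0.18) in lean controls (+0.40 against obese, adjusted p = 0.15).

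Ly6c lies beside another gene that was higher with rosiglitazone. In the RefSeq gene order, Ly6c lies on rat chromosome 7 in a stretch of 27 genes from Psca to Gpihbp1, of which 19 were measured. Ly6e, the gene next to Ly6c and also a lipid-anchored Ly6 protein, had 6.17 (SD 0.28) in rosiglitazone rats, 4.56 (SD 0.21) in resveratrol rats, 4.89 (SD 0.55) in obese rats and 4.86 (SD 0.25) in lean controls. It rose against obese muscle (+1.28, SE 0.20, adjusted p = 0.000664) whichever array was left out. Gpihbp1, at the far end of the stretch, had 6.18 (SD 0.12), 4.93 (SD 0.30), 4.98 (SD 0.13) and 4.49 (SD 0.29) for rosiglitazone, resveratrol, obese and lean control. The other 16 measured genes of the stretch ran from -0.40 to +0.34 and none was called, and Ly6al1, on the other side of Ly6c, had 3.08 (SD 0.20) in rosiglitazone rats, against 3.0 (SD 0.26) in obese rats. Apart from Lynx1 and Ly6al1, the group means of these 16 genes lay between 0.65 and 2.67, near or below the array medians. Their small differences are therefore weak evidence of no change. Probes of near-identical Ly6 genes can share signal, and the part of this in the values of Ly6c and Ly6e was not tested. Further along the stretch, Ly6cl1 had 0.69 in rosiglitazone rats and 0.65 in obese rats (+0.04), and Ly6al 0.87 and 0.72 (+0.16), neither called. Both lie far below the array medians, and nothing about shared signal is read from them.

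Around the 5 genes together, the 3 genes on each side made 30 neighbours, of which 22 were measured. Ly6e was the only 1 called, and the median of the 22 was +0.06, from -0.26 for Nmnat1 beside Rbp7 to +1.28 for Ly6e. Around Rbp7, Lzic stood at -0.01 and Ctnnbip1 at +0.12. Around Cd300lg, Mpp2 stood at -0.06 and Cfap97d1 at +0.05. Around Ceacam1, Dmac2 stood at -0.01 and Cxcl17 at +0.22, and around Kctd12b, on the X chromosome, Ubqln2 stood at +0.09.

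**Figure D5:**
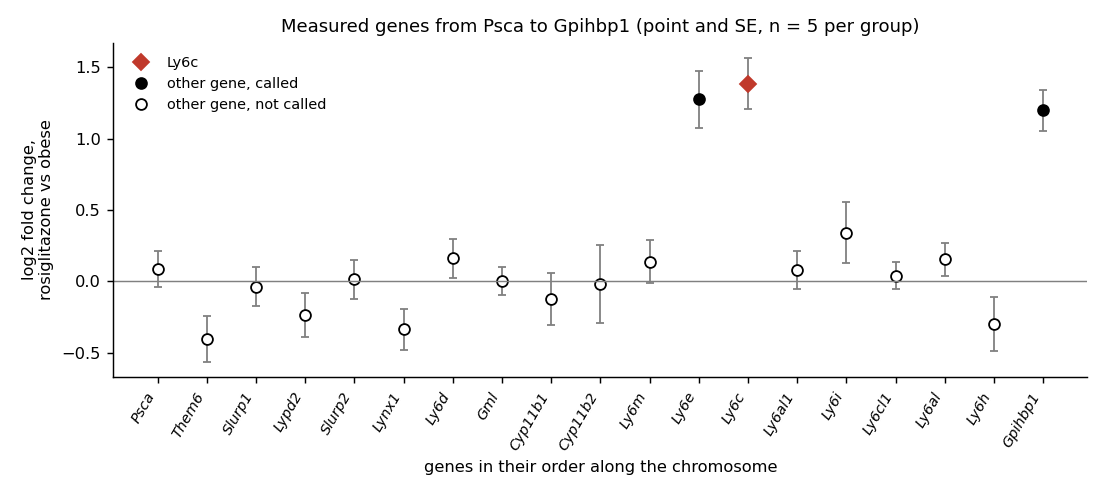
Log2 fold change of rosiglitazone against obese muscle for the 19 measured genes from Psca to Gpihbp1 in their chromosomal order, evenly spaced, with a point for the estimate and a bar for its SE. Ly6c at +1.39, its neighbour Ly6e at +1.28 and Gpihbp1 at +1.20 stand above the other 16 genes, which lie between -0.40 and +0.34. Apart from Lynx1 and Ly6al1, those 16 genes had levels near or below the array medians.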

How the data were processed

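Log2 values were deposited, made by the authors with RMA per the submitters' processing notes, a method that subtracts background, quantile-normalises the arrays and combines probes into 1 value per transcript cluster. Each array took 100 ng of total RNA, extracted with TRIzol and columns with DNase. The table had 36685 rows (14824 with 1 gene symbol, 829 with several, 21032 without), and only rows with 1 symbol were analysed. Where a symbol had several rows (234 genes), the brightest was kept, for 14557 genes.

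Comparisons used limma 3.58.1 (R 4.3.3) with 4 group means and all 20 arrays, two-sided, Benjamini-Hochberg adjusted over the 14557 genes, and called at an adjusted p under 0.05. Residual degrees of freedom were 16 and prior ones 6.35. Precision is set by the number of arrays, with a typical residual SD of 0.222 log2 units and a typical 95% interval of 0.286 to either side (medians over genes). No p is given for the 5 genes in comparisons with rosiglitazone. Likeness was the Pearson correlation with the mean of the 5 centred and scaled genes. The comparison was tested on simulated data. Python 3.11.15, pandas 2.3.3 and matplotlib 3.10.9 were used for the rest.

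The 5 genes, the lists and the tests were chosen with earlier results of these data known. Genes named beside the 5 were the 10 most like them and the 5 most like them within groups (without symbols that begin with LOC, RGD, MGC, Olr, Vom or Mir), up to 4 called genes of each list in each direction by smallest p, and a set of defining markers and relatives. The 5 most opposite genes, the chromosomal neighbours and other uncalled genes were named after their values were seen. RefSeq held 14416 of the 14557 symbols by gene ID. The alternatives tried were a replicate block, moderation with trend and robust weighting, a filter to genes above the median level, the mean over rows of a gene, a test of every row, a fit of the compared groups alone, array weights, median centring, quantile normalization and leaving out each array.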

Additional observations from a re-analysis of the deposited data

How the results depend on the processing

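The 5 genes kept their direction and stayed within 1 residual SD of their values in all 285 recomputed differences from rosiglitazone comparisons. They were chosen for large rosiglitazone differences, so a kept direction carries no weight. The replicate block, the moderation, the level filter and the row mean leave each estimate unchanged and alter only its SE. So do the test of every row and the fit of the compared groups alone. In the comparisons without rosiglitazone, none of the 285 recomputed values of these genes was called, and 10 turned in sign. Those were Kctd12b in resveratrol against lean control rats with median centring (-0.026) and with arrays left out (-0.0695 to 0.14), and, with arrays left out, Ceacam1 in resveratrol against obese rats (-0.017 to 0.13), and Rbp7 (-0.029 to 0.48) and Ly6c (-0.0074 to 0.22) in obese against lean control rats. Among 39 other named genes, 24 kept their call under every alternative in which they were fitted and 15 lost it under at least 1, with no sign turned. Cidec, Lep and Elovl6 were not fitted under the filter to genes above the median level.

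The replicate numbers of the labels name no shared animal, and same-numbered rats did not deviate together (r from -0.172 to 0.067 over 30 pairs, and 2 of 20 rats correlated best with their own number). With the replicate block, 218 genes were called in rosiglitazone against obese, 225 in rosiglitazone against resveratrol, 385 in rosiglitazone against lean control, 0 in resveratrol against obese, 1 in resveratrol against lean control and 1 in obese against lean control.

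The count of genes called in rosiglitazone against resveratrol was 297, it was 177 with only these groups fitted, and it ran from 177 (without resveratrol replicate 2) to 253 with arrays left out. In rosiglitazone against lean control it was 510, and 325 (without lean control replicate 1) to 478 with arrays left out. In resveratrol against lean control it was 2, with 4 under trend and robust moderation, 4 with all rows, 0 among genes above the median level, 0 with only these groups and 0 to 5 with arrays left out. In obese against lean control it was 1, with 8 under array weights, 5 among genes above the median level, 24 with trend and robust moderation, 0 with all rows, 0 with only these groups and 0 to 24 (without obese replicate 5) with arrays left out. The mean r of the 10 pairs of the 5 genes was 0.905, 0.583 by Spearman, 0.0057 for deviations from group means and 0.885 to 0.925 with arrays left out. With fewer arrays or fewer genes the tests differ by construction, and otherwise the cause was not tested. The levels of Ceacam1 outside the rosiglitazone group and of Cd300lg in lean control and resveratrol rats lie near the array medians, where the table holds no detection call.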
